A study of Daphnia magna with 2 samples.

Results

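Genes of the mitochondrial respiratory chain and the ATP synthase were described in single-cell libraries of the water flea Daphnia magna. They were found by name in the study's gene list: 7 mitochondrially encoded entries, whose names start with MT_, and 60 nuclear genes whose first symbol starts with NDUF, UQCR, ATP5 or SDH, or is CYC1 or COX with a number. Together these are 67 of 33957 genes listed. The 7 mitochondrial entries are copies of 3 symbols on 4 contigs, namely MT-ND1, MT-CO2 and MT-ND3, whereas the RefSeq table for the species has 13 protein-coding genes on its mitochondrial chromosome. The nuclear genes have 58 symbols, and 3 members share their EVG identifier (a transcript identifier in the gene list) with another gene, so their reads may have been split.

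The study dissociated whole animals with collagenase at 4 mg/ml and barcoded polyA RNA with inDrops, in which each droplet pairs a cell with a bead whose barcode marks the cell and whose unique molecular identifiers (UMIs) mark single RNA molecules. There are 2 samples, each without a replicate: the mixed sample, in which male, female, young and old water fleas were combined, and the young sample. Both are whole bodies, and neither strain nor age in days is given for them. The barcode lists add library codes that the sources used here do not spell out, 7 in the mixed sample (MY1, MY2, F4W, FO1, FO2, FYB and FYH) and 3 in the young sample (Y2, CH1 and CH2); they were used as units of description and not as replicates.

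The respiratory chain passes electrons from NADH (complex I) or succinate (complex II) through complexes III and IV to oxygen, and the proton gradient this builds drives ATP synthesis by complex V. Complexes I, III, IV and V join subunits made in the mitochondrion from its own genome with subunits encoded in the nucleus and imported, while complex II is wholly nuclear. The 2 sets were therefore kept apart. Roles given below are known from mammals and yeast, and the symbols are those of the gene list.

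At a minimum of 500 UMIs, 2253 of 48846 mixed barcodes and 2099 of 442368 young barcodes were kept, with 2779211 and 2314350 UMIs. Median depth was 940 and 829 UMIs. The codes held between 41 barcodes (F4W) and 1103 barcodes (FYB), so F4W values rest on 40082 UMIs and those of FYB on 1326669. Levels are CPM, counts per 1000000 UMIs of the kept barcodes, and are not divided by gene length, so they are compared between samples and codes and not between genes. Intervals are exact at 95% and cover counting error only. With 1 sample per group no test was possible, and a sum over barcodes cannot tell more cells of a type from more RNA per cell.

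The mitochondrially encoded genes made up 4966 CPM of the mixed sample and 10668 CPM of the young sample, a ratio of 0.466 (interval 0.456 to 0.475). Of these, 4960 CPM were MT-CO2 in the mixed sample and 10474 CPM were MT-ND1 in the young sample. Set ratios between the samples thus compare mainly different genes and do not give a difference in level of the same genes. Within the mixed sample the level was 3353 CPM in MY1, 2874 CPM in MY2, 2545 CPM in F4W, 3663 CPM in FO1, 2710 CPM in FO2, 6858 CPM in FYB and 4462 CPM in FYH. Within the young sample it was 26609 CPM in Y2, 7462 CPM in CH1 and 4345 CPM in CH2. Y2 stood apart from all other codes, and the ranges of the samples overlapped, since FYB and FYH were above CH2. Without Y2 the young level was 5994 CPM and the ratio 0.829 (interval 0.808 to 0.850). The log2 ratio of -1.10 was -1.72 without FYB.

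The 2 samples differed more in which mitochondrial gene was counted than in the total. MT-ND1, the core membrane subunit of complex I at the quinone site, had 5.76 CPM in the mixed sample and 10474 CPM in the young sample over its 2 copies. MT-CO2, the copper-binding subunit of complex IV that receives electrons from cytochrome c, had 4960 CPM in the mixed sample and 194 CPM in the young sample over its 4 copies. The mitochondrial set was thus nearly all MT-CO2 in the mixed sample and nearly all MT-ND1 in the young sample.

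By copy, MT-ND1 on s000357F_p0.2 had 16 mixed counts and 20454 young counts. Its log2 ratio of -10.58 was -9.74 without Y2. In CPM it lay between 0 (MY2) and 49.9 (F4W) over the mixed codes, and at 22190 in Y2, 6201 in CH1 and 3488 in CH2, so the samples did not overlap. MT-ND1 on s000362F_p0.4 had no count in any deposited mixed barcode and 3787 counts in kept young barcodes, at least 1516-fold lower in the mixed sample when 3 counts are taken as the limit for its sum. In the young sample it had 4074 CPM in Y2, 1078 CPM in CH1 and 746 CPM in CH2. The count on the first copy was 5.45 times that on the second in Y2, 5.75 times in CH1 and 4.68 times in CH2.

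The MT-CO2 copy on m000184F_s0.2 carried the mixed level, with 13679 mixed counts and 103 young counts. Its CPM was 3307 in MY1, 2844 in MY2, 2395 in F4W, 3613 in FO1, 2664 in FO2, 6812 in FYB and 4411 in FYH, against 122 in Y2, 28.5 in CH1 and 14.2 in CH2. All mixed codes were above all young codes, and the ratio of the sums was 111 (interval 91.1 to 136). Its log2 ratio of 6.79 was 7.82 without Y2 and 6.17 without FYB. The copy on m000291F_a0.3 had 106 mixed counts and 2 young counts, and went the same way.

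The other MT-CO2 copies went the opposite way. The copy on g000184F_p0.8 had 0 mixed counts and 182 young counts, at least 72.9-fold lower in the mixed sample. The copy on s000362F_p0.6 had 1 mixed count and 162 young counts. All 6 copies that reached 50 counts thus differed by 4-fold or more, with the mixed sample above in 2 and below in 4 of them, beside 24.7% of all genes with such a difference in either direction. MT-ND3, another complex I subunit, had 0 counts in both sums and 2 counts over all deposited young barcodes. Copies of 1 symbol can share reads, so how a symbol's counts fall on its copies is uncertain, and so is a symbol's total where reads can lie on a neighbouring entry of the contig.

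The 4 contigs that carry these copies list 26 genes, of which 19 have no symbol. Of those 19, 16 had no count in any deposited mixed barcode, while 10 had at least 50 counts over all deposited young barcodes. The most counted of them, s000362F_p0.3, had 10.4 CPM in the mixed sample and 11802 CPM in the young sample. In the young sample that is more than the whole mitochondrial set, so the set total depends on which entries carry a symbol. Of the 8322 genes with at least 50 counts over all deposited young barcodes, 6.81% had no count in any mixed barcode. Among the members that reached that count, 2 of 6 mitochondrial copies and 0 of 38 nuclear genes were of this kind.

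**Figure D1:**
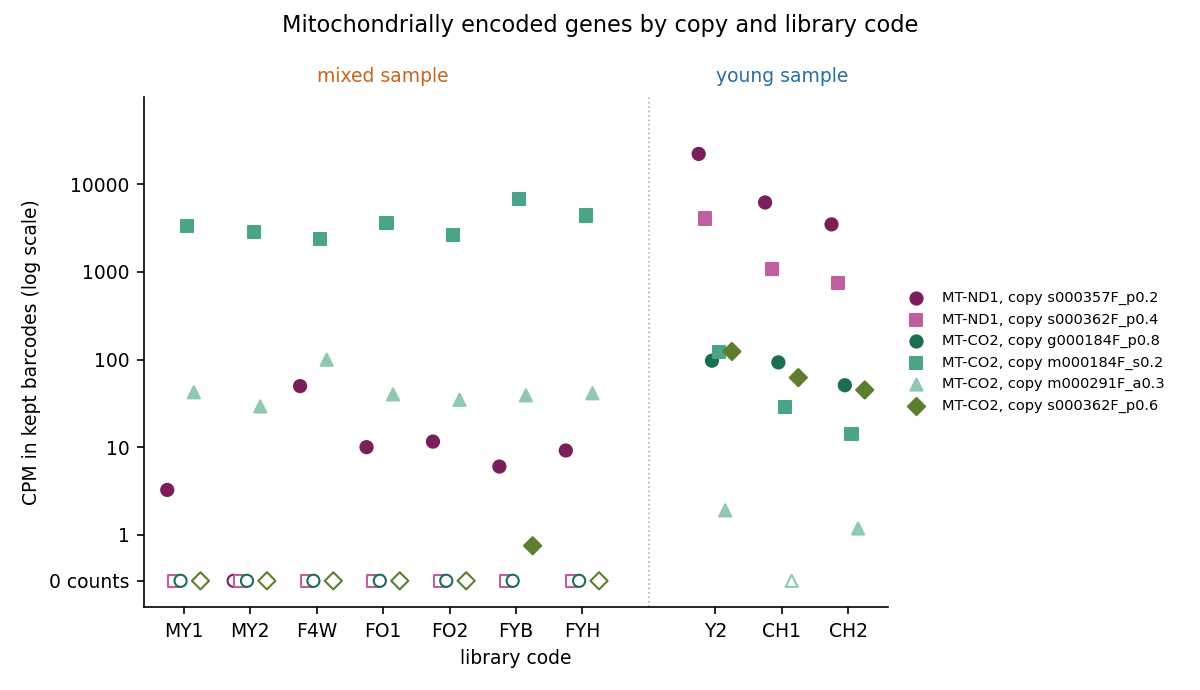
Level of each mitochondrially encoded gene copy with at least 50 counts, as CPM on a log scale, in the 7 codes of the mixed sample and the 3 codes of the young sample; open symbols at the foot mark 0 counts. The MT-CO2 copy on m000184F_s0.2 leads in the mixed codes, between 2395 and 6812 CPM, and the MT-ND1 copy on s000357F_p0.2 leads in the young codes, between 3488 and 22190 CPM.

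Summed over codes, the mitochondrial share was lower the deeper the barcode in both samples. In barcodes of 57 to under 100 UMIs it was 5.83% of UMIs in the mixed sample and 4.45% in the young sample. At 500 to under 1000 UMIs it was 0.878% and 2.05%, and at 2000 UMIs or more 0.182% and 0.184%. Some single codes departed from this order. Y2 had 3.49% at 57 to under 100 UMIs and 4.49% at 200 to under 500. FYB had 5.64% at 57 to under 100 UMIs and 5.94% at 100 to under 200. The deepest barcodes, 352 mixed and 232 young, held a mean of 5.02 mitochondrial UMIs each in both samples (SD over barcodes 5.57 and 7.95). Over every deposited barcode the share was 3.49% in each sample. These sums are unlike, since the mixed barcodes start at 57 UMIs and most of the young barcodes lie below that. The order of the samples therefore changed with depth, with the mixed sample higher under 200 UMIs and the young sample higher between 200 and 2000 UMIs. Over kept and over all deposited barcodes the set was nearly all MT-CO2 in the mixed sample and nearly all MT-ND1 in the young sample. Like shares in the 2 samples therefore do not mean like levels of the same gene.

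Y2 kept a high mitochondrial share in deeper barcodes. At 500 to under 1000 UMIs it was 4.03% in Y2, 1.47% in CH1 and 0.824% in CH2. At 1000 to under 2000 UMIs it was 2.01% in Y2, 0.474% in CH1 and 0.353% in CH2, and at 2000 UMIs or more 0.368%, 0.167% and 0.111% in the same order. The median barcode had a mitochondrial share of 3.95% in Y2, 0.636% in CH1 and 0.352% in CH2. Barcodes with more mitochondrial than nuclear respiratory chain UMIs made up 86.4% of Y2, 46.5% of CH1 and 32.3% of CH2.

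The nuclear set went the other way with depth in the young sample. There it was higher in each deeper bin above 200 UMIs, with 0.267% of UMIs at 200 to under 500, 0.461% at 500 to under 1000, 0.630% at 1000 to under 2000 and 0.822% at 2000 UMIs or more. In the mixed sample the same bins held 0.940%, 0.890%, 0.850% and 0.898%, with no such order. Below 500 UMIs the nuclear set made up 1.014% of mixed UMIs and 0.273% of young UMIs, the latter including barcodes under 57 UMIs, which the mixed sample lacks.

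**Figure D2:**
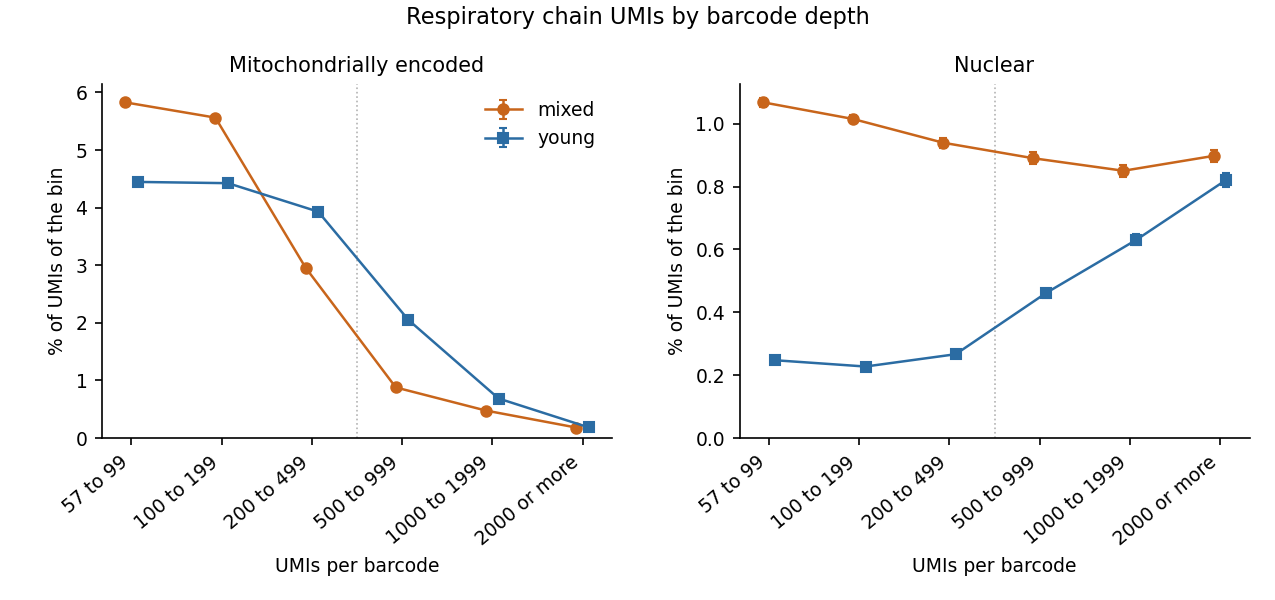
Share of UMIs from the mitochondrially encoded and the nuclear respiratory chain genes by UMIs per barcode, for the mixed and the young sample; bars are exact 95% intervals, often smaller than the symbols, and the dotted line marks the minimum of 500 UMIs. At 2000 UMIs or more the shares are 0.182% (mixed) and 0.184% (young) for the mitochondrial genes, and 0.898% and 0.822% for the nuclear genes. Over kept barcodes the mitochondrial genes are mainly MT-CO2 in the mixed sample and mainly MT-ND1 in the young sample.

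The nuclear genes together had 8794 CPM in the mixed sample and 6184 CPM in the young sample, a ratio of 1.42 (interval 1.39 to 1.45). By code they had 11403 CPM in MY1, 10560 CPM in MY2, 10204 CPM in F4W, 8259 CPM in FO1, 9693 CPM in FO2, 7681 CPM in FYB and 6171 CPM in FYH, against 3218 CPM in Y2, 7194 CPM in CH1 and 6897 CPM in CH2. The samples overlapped at FYH, which lay below CH1 and CH2. Without Y2 the young level was 7054 CPM and the ratio 1.25 (interval 1.22 to 1.27). When only barcodes with 2000 UMIs or more were summed, the log2 ratio was 0.13, against 0.51 in all kept barcodes. Both values include 12 genes hardly counted in the young sample, which are described below.

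Of the 60 nuclear genes, 48 reached 50 counts over the mixed and young sums, 12 did not, and 5 of those 12 had none in either sum (a second NDUFAF2 entry, COX5A, COX5B, a second SDHC entry and UQCRQ). COX5A and COX5B are nuclear subunits of complex IV, so 2 of its 6 listed nuclear subunits were not detected. The limit of 3 counts used for a count of 0 is 1.08 CPM in the mixed sum and 1.30 CPM in the young sum. CYC1, the heme-bearing cytochrome c1 of complex III, had 9 mixed counts and 0 young counts, and ATP5PO, the stalk subunit OSCP of complex V, had 2 and 0.

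A group of 12 nuclear genes was counted in the mixed sample and hardly at all in the young sample. Over every deposited barcode they had between 74 and 1897 counts each in the mixed sample, 7451 in all, and 3 counts together in the young sample; 10 of the 12 had none there. Whether both samples were counted with the same annotation and settings is not given in the sources used here, so a 0 in only 1 sample, like the split between copies of MT-ND1 and MT-CO2, cannot be told apart from a difference in counting. The 12 are NDUFA7, NDUFA11, NDUFA12, NDUFB9, NDUFS4, NDUFS6 and NDUFS7 (complex I subunits, NDUFS7 bearing the last iron-sulfur cluster before ubiquinone), NDUFAF3 and SDHAF4 (assembly factors of complexes I and II), COX6B1 and COX7C (complex IV) and ATP5IF1, the inhibitor that binds the ATP synthase when it runs in reverse. Of 8317 genes with at least 50 counts over every mixed barcode, 6.62% had at most 2 counts over every young barcode, and 12 of the 51 members that reached that count did so. Those with no young count at all were 5.69% of these genes and 10 of the 51 members.

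COX6B1 had 457 mixed counts and none in any deposited young barcode, 164 CPM and at least 127-fold higher in the mixed sample. Its CPM was 183 in MY1, 159 in MY2, 274 in F4W, 201 in FO1, 168 in FO2, 155 in FYB and 175 in FYH. COX7C had 113 CPM in the mixed sample and 0 in the young sample (at least 86.9-fold), ATP5IF1 91.8 CPM and 0 (at least 70.8-fold), NDUFS4 76.3 CPM and 0 (at least 58.8-fold), NDUFA11 73.0 CPM and 0 (at least 56.3-fold). These limits scale with the young UMIs summed, so that without CH1 the log2 limit of COX6B1 was 6.23 in place of 6.99. SDHAF4 had 70.9 CPM and 0. Of the 12, 10 had counts in all 7 mixed codes, and none had a count in kept barcodes of any young code.

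These 12 genes made up 766 CPM of the mixed sample. Without them the nuclear set had 8027 CPM in the mixed sample and 6184 CPM in the young sample, a ratio of 1.30 (interval 1.27 to 1.33). Without them and without Y2 the ratio was 1.14 (interval 1.11 to 1.16). Without them in barcodes of 2000 UMIs or more, the nuclear set had 8280 CPM in the mixed sample and 8217 CPM in the young sample, nearly level. The 12 genes are set apart below, and the 39 members with at least 50 counts that remain are called counted in both samples.

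Fold limits were read against all 8011 genes that reached 50 counts over the mixed and young sums. At least 4-fold higher in the mixed sample were 9 of 48 nuclear genes, beside 13.6% of all genes, and all 9 belong to the group of 12. None of the 48 was at least 4-fold lower, beside 11.1% of all genes. At least 2-fold higher were 17 of 48 beside 32.8% of all genes, with 8 of the 39 counted in both samples, and none was at least 2-fold lower, beside 16.9% of all genes. The shares of all genes include genes hardly counted in the young sample, so they are not like shares for the 39.

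The median log2 ratio, mixed over young, was 0.70 over the 48 nuclear genes, against 0.52 over all genes tested. It was 0.58 over the 39 counted in both, against 0.48 over all genes tested without those with at most 2 young counts. The typical nuclear respiratory chain gene thus lay close to the typical gene. Scaling by TMM moves every log2 ratio by -0.42 and by DESeq2 size factors by -0.44. Of the 39 genes 34 were higher and 5 lower in the mixed sample on the CPM scale, 24 and 15 after TMM scaling, and 23 and 16 after DESeq2 scaling, so the direction of small differences below rests on the scale. Of the genes named by rule, NDUFA5, NDUFA8, UQCRC2, UQCRH, COX6C, ATP5F1A and ATP5MF had the other sign in at least 1 of the alternatives tried.

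**Figure D3:**
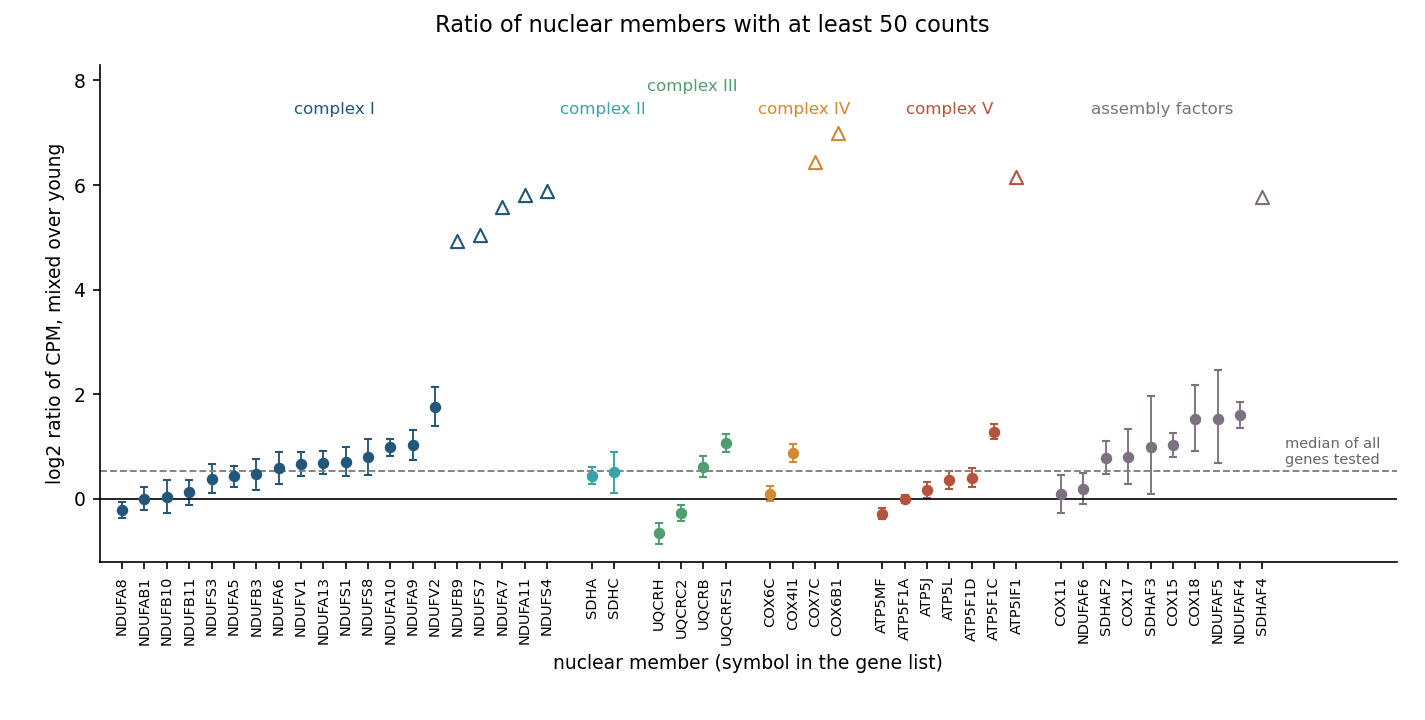
Log2 ratio of CPM, mixed over young, for nuclear genes with at least 50 counts, by complex, with assembly factors apart and the inhibitor ATP5IF1 drawn with complex V; bars are exact 95% intervals, and open triangles are genes with 0 counts in the young sum, whose value is set by a limit of 3 counts. The dashed line at 0.52 is the median of all genes tested, and the filled points lie between -0.66 (UQCRH) and 1.76 (NDUFV2).

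Complex I takes electrons from NADH. Its 23 listed nuclear subunits had 2716 CPM in the mixed sample and 1694 CPM in the young sample, a ratio of 1.60 (interval 1.54 to 1.67). For the 16 of them counted in both samples the levels were 2400 and 1694 CPM, a ratio of 1.42 (interval 1.36 to 1.47). The code range was 1783 (FYH) to 3729 CPM (MY2) in the mixed sample and 1033 (Y2) to 1919 CPM (CH1) in the young sample, so the samples overlapped.

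NDUFV2, an iron-sulfur subunit at the NADH end, had the highest ratio among subunits counted in both samples. It had 170 CPM in MY1, 112 in MY2, 150 in F4W, 80.3 in FO1, 163 in FO2, 93.5 in FYB and 78.1 in FYH, against 26.7 in Y2, 33.8 in CH1 and 34.4 in CH2. All mixed codes were above all young codes, with a ratio of 3.38 (interval 2.61 to 4.41). Its partner NDUFV1, which binds NADH and FMN, also had no overlap, with 162 CPM in the mixed sample and 102 CPM in the young sample.

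NDUFA5, an accessory subunit of the matrix arm, had 184.2 CPM in the mixed sample and 137 CPM in the young sample (ratio 1.34, interval 1.17 to 1.55). NDUFA8, an accessory subunit on the intermembrane space side, had 262 CPM in the mixed sample and 303 CPM in the young sample (ratio 0.865, interval 0.779 to 0.961). NDUFA9, an accessory subunit near the quinone site, had 128 CPM in the mixed sample and 63.1 CPM in the young sample (ratio 2.03, interval 1.67 to 2.48).

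Complex II oxidises succinate and links the chain to the citric acid cycle, and its listed subunits had 376 CPM in the mixed sample and 274 CPM in the young sample (ratio 1.37, interval 1.24 to 1.51). Its flavoprotein SDHA, which carries the FAD, had 322 CPM in the mixed sample and 236 CPM in the young sample (ratio 1.36, interval 1.22 to 1.52). Its membrane anchor SDHC (DAPMA1EVG022052) had 54.0 CPM in the mixed sample and 38.02 CPM in the young sample (ratio 1.42, interval 1.08 to 1.87). Over the codes SDHA ran from 230 CPM (FYH) to 377 CPM (FO2) in the mixed sample, and had 124 CPM in Y2, 253 in CH1 and 288 in CH2, so the samples overlapped. SDHB and SDHD are not among the symbols that the name rule found.

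Complex III passes electrons from ubiquinol to cytochrome c, and its 6 listed members had 921 CPM in the mixed sample and 795 CPM in the young sample (ratio 1.16, interval 1.09 to 1.23). Without 14 mixed barcodes rich in UQCRFS1 the mixed level was 716 CPM (ratio 0.9002, interval 0.844 to 0.960), so among kept barcodes the direction of the whole complex rested on them. Its members differed in direction. UQCRB, a ubiquinone-binding accessory subunit, had 209 CPM in the mixed sample and 137 CPM in the young sample (ratio 1.53, interval 1.33 to 1.76). UQCRC2, a core subunit, had 251 and 304 CPM (ratio 0.826, interval 0.742 to 0.918).

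UQCRH, the hinge protein that helps cytochrome c1 meet cytochrome c, had the lowest ratio of the 48 genes. It had 166 CPM in MY1, 190 in MY2, 125 in F4W, 90.3 in FO1, 128 in FO2, 86.7 in FYB and 110 in FYH, against 135 in Y2, 207 in CH1 and 218 in CH2. Every mixed code was below CH1 and CH2 and the samples overlapped only at Y2 (ratio of the sums 0.633, interval 0.549 to 0.730). The Rieske iron-sulfur protein UQCRFS1 is described with MY1 and MY2 below.

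Complex IV reduces oxygen to water. Its listed nuclear subunits had 927 CPM in the mixed sample and 483 CPM in the young sample (ratio 1.92, interval 1.79 to 2.06), and without COX6B1 and COX7C the levels were 649 and 483 CPM (ratio 1.35, interval 1.25 to 1.45). COX4I1, the subunit through which ATP and ADP regulate the enzyme, had 318 CPM in the mixed sample and 173 CPM in the young sample (ratio 1.84, interval 1.63 to 2.08). By code it had 424 CPM in MY1, 417 in MY2, 349 in F4W, 401 in FO1, 418 in FO2, 246 in FYB and 202 in FYH, against 68.6 in Y2, 216 in CH1 and 190 in CH2. Only FYH among the mixed codes was below a young code. COX6C, a small transmembrane subunit, had 331 CPM in the mixed sample and 309.8 CPM in the young sample (ratio 1.07, interval 0.969 to 1.18), within counting error.

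Complex V is the ATP synthase, whose subunits had 2929 CPM in the mixed sample and 2548 CPM in the young sample (ratio 1.15, interval 1.11 to 1.19). Its catalytic-head subunit alpha, ATP5F1A, was the most counted nuclear gene, with 1055 CPM in the mixed sample and 1062 CPM in the young sample (ratio 0.994, interval 0.942 to 1.05). By code it had 877 CPM in MY1, 897 in MY2, 1721 in F4W, 1395 in FO1, 1416 in FO2, 1119 in FYB and 799.6 in FYH, against 503 in Y2, 1233 in CH1 and 1218 in CH2. The equal sums thus covered codes that ranged widely, with Y2 lowest.

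The rotor subunit gamma, ATP5F1C, turns inside that head and showed another pattern. It had 753 CPM in MY1, 586 in MY2, 399 in F4W, 502 in FO1, 644 in FO2, 583.4 in FYB and 505 in FYH, against 147 in Y2, 275 in CH1 and 270.4 in CH2. All mixed codes were above all young codes (ratio 2.44, interval 2.21 to 2.69). ATP5MF, subunit f of the membrane part, had 495 CPM in the mixed sample and 603 CPM in the young sample (ratio 0.821, interval 0.762 to 0.886). Subunits of a single enzyme therefore differed in ratio by more than their counting intervals.

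Over all genes tested, 11% had every mixed code above every young code. Of the 48 nuclear genes 14 were of this kind, 9 of them from the group of 12. Of the 39 counted in both samples there were 5, namely NDUFV1, NDUFV2, COX15, ATP5F1C and ATP5F1D, a share near that of all genes. The share of all genes includes genes hardly counted in the young sample. COX15, which makes the heme A of complex IV, had 198 CPM in the mixed sample and 96.8 CPM in the young sample (ratio 2.04, interval 1.75 to 2.40). No nuclear gene had every mixed code below every young code, beside 10.9% of all genes.

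The 14 assembly factors, which build the complexes and are not part of them, had 833 CPM in the mixed sample and 390 CPM in the young sample (ratio 2.13, interval 1.98 to 2.31). This sum includes 2 of the group of 12, NDUFAF3 and SDHAF4, with 27 and 197 mixed counts and 0 young counts. It also includes NDUFAF4, of which 4 barcodes held 155 of 632 mixed UMIs. The ratio rests in part on these. NDUFAF5, which modifies a complex I subunit during assembly, had 18.7 and 6.48 CPM (ratio 2.89, interval 1.60 to 5.52). COX18, which inserts the tail of the COX2 protein into the inner membrane, had 36.0 and 12.5 CPM (ratio 2.87, interval 1.88 to 4.505). COX11, which places copper in complex IV, had 51.8 and 48.8 CPM (ratio 1.06, interval 0.824 to 1.37).

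**Figure D4:**
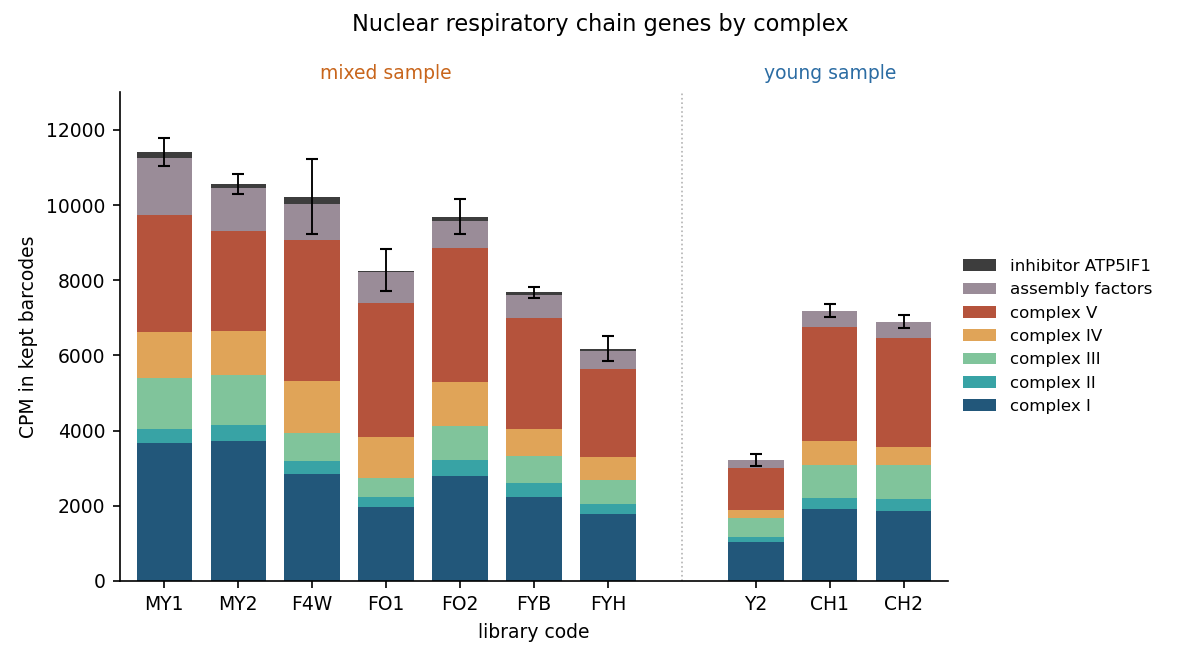
Summed CPM of the nuclear respiratory chain genes in each library code, stacked by complex with the assembly factors and the inhibitor ATP5IF1 on top; bars on each column are exact 95% intervals of its total. The mixed codes run from 6171 CPM (FYH) to 11403 CPM (MY1), and Y2 has the lowest column at 3218 CPM.

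The codes of the young sample differed among themselves in nearly all nuclear genes. Y2 was below both CH1 and CH2 in 32 of 35 nuclear genes with at least 50 counts in the young sum, beside 62.3% of all such genes, and above both in none. The median log2 ratio of Y2 over CH1 and CH2 together was -1.12 over these 35 genes and -0.56 over all genes. For the set, Y2 had 3218 CPM and CH1 with CH2 had 7054 CPM (ratio 0.456, interval 0.433 to 0.480). Among the exceptions, NDUFAF6 and NDUFB3 had Y2 levels between those of CH1 and CH2.

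ATP5MF was among the genes furthest down in Y2, with 212 CPM, against 717 CPM in CH1 and CH2 together (ratio 0.295, interval 0.241 to 0.358). COX4I1 had 68.6 and 203 CPM (ratio 0.337, interval 0.233 to 0.476). The mitochondrially encoded copies went the other way, with 5 of 5 higher in Y2 than in both CH1 and CH2, beside 30.7% of all genes, and a set ratio of 4.44 (interval 4.33 to 4.55). No nuclear respiratory chain UMI was found in 220 of 557 Y2 barcodes (39.5%), in 77 of 830 CH1 barcodes and in 39 of 712 CH2 barcodes.

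Depth differs between these codes. Y2 barcodes with at least 2000 UMIs, 47 of them, had 0.611% nuclear respiratory chain UMIs, against 0.861% in CH1 and 0.883% in CH2, so Y2 was lowest at that depth too, with a smaller gap. Muscle markers had 1456 CPM in Y2, 767 in CH1 and 939 in CH2, and photoreceptor markers 1286, 557 and 490 CPM in the same order. Digestive markers had 187, 78.2 and 60.5 CPM, and hemocyte markers, lower in Y2, had 5168, 6987 and 7709 CPM. Germline markers were level, at 1101, 1082 and 1123 CPM. The part of cell makeup and depth in the Y2 values was not tested.

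MY1 and MY2 had the highest nuclear levels in the mixed sample, 10840 CPM together against 7776 CPM in the other 5 mixed codes (ratio 1.39, interval 1.36 to 1.43). They were above all 5 in 12 of 47 nuclear genes with at least 50 mixed counts, beside 30.4% of all such genes, so this share was near the background. The median log2 ratio was 0.42 over the nuclear genes and 0.39 over all genes. The difference was uneven. UQCRFS1 was 6.27-fold higher, NDUFA10 5.77-fold, COX18 5.44-fold (79.1 CPM against 14.5 CPM, interval 3.45 to 8.80), NDUFAF4 3.79-fold and COX17, a copper chaperone of complex IV, 3.67-fold (67.2 CPM against 18.3 CPM, interval 2.38 to 5.75). NDUFA10, UQCRFS1 and NDUFAF4 had the most counts of these, and without these 3, a set put together after their values were seen, the levels were 8746 and 7383 CPM (ratio 1.18, interval 1.15 to 1.22).

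NDUFA10 is an accessory subunit of complex I. It had 861 CPM in MY1 and 894 in MY2, against 274 in F4W, 171 in FO1, 151 in FO2, 163 in FYB and 64.3 in FYH. The young codes had 101 CPM in Y2, 242 in CH1 and 213 in CH2. MY1 and MY2 stood apart from all other codes of both samples, 5.77-fold above the other mixed codes (interval 5.04 to 6.63). The mixed over young ratio was 1.98 (interval 1.78 to 2.21), with no more than 11 UMIs in any mixed barcode. Its log2 value of 0.99 was 0.34 without MY2 and 1.61 without FYB.

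Germline markers were also high in these codes. The 11 germline genes (6 of PIWIL1 and 5 of TDRD1, which act in the piRNA pathway) had 2498 CPM in MY1 and 2828 in MY2, against 1971 in F4W and between 469 (FYH) and 1365 CPM (FO1) in the rest. DDX4, PIWIL2, NANOS1 and VASA have no entry in the gene list. The excess lay mostly in TDRD1, with 1403 CPM in MY1 and 1756 CPM in MY2, against 161 (FYH) to 524 CPM (F4W) in the other mixed codes. PIWIL1 had 1096 CPM in MY1 and 1073 CPM in MY2, below the 1447 CPM of F4W. In MY1 and MY2, NDUFA10 had 960 CPM in the 209 barcodes with at least 5 germline UMIs and 819 CPM in the other 489. In the other mixed codes it had 314 CPM in the 107 such barcodes and 124 CPM in the rest, and in the young sample 721 CPM in 111 such barcodes and 122 CPM in the rest. The NDUFA10 level thus went with germline UMIs in young barcodes and in the other mixed codes, while in MY1 and MY2 it was high in barcodes of both kinds. Barcodes with at least 5 germline UMIs were also deeper. Their median was 2573 UMIs against 798 in the rest of the young sample, and 2077 against 854 over all mixed codes. NDUFA10 was not compared at matched depth, so the part of depth in its level was not tested.

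Barcodes with few UMIs carried it too. In MY1 and MY2 NDUFA10 had 908 CPM in barcodes under 500 UMIs, against 133 CPM in such barcodes of the other mixed codes. The part of RNA from outside the cells, and of germline cells, in the MY1 and MY2 level was not tested.

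UQCRFS1, the Rieske iron-sulfur protein of complex III, was as high in MY1 and MY2 but, among kept barcodes, in another way. It had 812 CPM in MY1 and 738 in MY2, against 125 in F4W, 100.4 in FO1, 157 in FO2, 124 in FYB and 91.9 in FYH, and 105 in Y2, 173 in CH1 and 179 in CH2. Of its 930 UMIs in the mixed sample, 574 (61.7%) lay in 14 of 2253 kept barcodes. Each of the 14 had between 23 and 74 UMIs of UQCRFS1, and no other kept mixed barcode had more than 3. No kept young barcode had more than 4.

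All 14 barcodes carried the codes MY1 (5) or MY2 (9), and they came from both lanes (6 and 8). They had 678 to 3550 UMIs each, with a median of 1011.5. Without them UQCRFS1 had 144 CPM in MY1 and MY2 together and 122 CPM in the other mixed codes. The mixed level was then 129 CPM, below the 160 CPM of the young sample (ratio 0.807, interval 0.696 to 0.936), whereas with them it was 335 CPM (ratio 2.09, interval 1.85 to 2.37). Among kept barcodes the direction of UQCRFS1 between the samples therefore rested on 14 barcodes. With these 14, its log2 ratio of 1.07 was 0.46 without MY2 and 1.72 without FYB. In barcodes under 500 UMIs UQCRFS1 had 1319 CPM in MY1 and MY2, where 7.18% of such barcodes held it. The other mixed codes had 206 CPM there and the young sample 75.5 CPM. That young sum includes barcodes under 57 UMIs, which the mixed sample lacks. The high level in MY1 and MY2 was thus not confined to the 14 barcodes.

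The rest of the chain was not higher in these 14 barcodes. Other nuclear respiratory chain genes had 7313 CPM there (interval 6171 to 8605), against 10137 CPM in the remaining 684 barcodes of MY1 and MY2. The other complex III genes had 559 CPM (interval 278.9 to 999.4) against 577 CPM, and the mitochondrial genes 1828 CPM (interval 1281 to 2530) against 3059 CPM. The barcodes were chosen by UQCRFS1 after its values were seen, so its own level in them is a description.

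The genes with symbols that led these 14 barcodes over the remaining MY1 and MY2 barcodes, among those with at least 50 counts there, were SPINT2 (a Kunitz-type protease inhibitor), B3GALT5 (a galactosyltransferase), UGT2B7 (a glucuronosyltransferase), CYP24A1 (a cytochrome P450), UQCRFS1 itself and B3GAT2. SPINT2 (DAPMA1EVG020094) had 1118 counts in the 14 barcodes, 39 in the 684 others and 1 in kept young barcodes. SPINT2, B3GALT5, UGT2B7 and CYP24A1 had UMIs in all 14. The marker lists had 9 germline, 3 muscle, 7 neuron, 8 photoreceptor and 0 digestive UMIs in them, and 86 hemocyte UMIs. No cell type is named for them.

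NDUFAF4, an assembly factor of complex I, lay between these patterns. It had 685 CPM in MY1 and 329 in MY2, against 324 in F4W, 161 in FO1, 116 in FO2, 119 in FYB and 55.1 in FYH, and 30.5 in Y2, 74.0 in CH1 and 104 in CH2. In this gene 4 barcodes, all of MY1 or MY2, held 155 of 632 mixed UMIs, with 13 to 65 each. Without them the mixed level was 172 CPM and the ratio to the young sample 2.29 (interval 1.92 to 2.74), against 227 CPM and 3.02 (interval 2.55 to 3.60) with them. It was among the genes furthest up in MY1 and MY2 together (3.79-fold, interval 3.21 to 4.49).

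**Figure D5:**
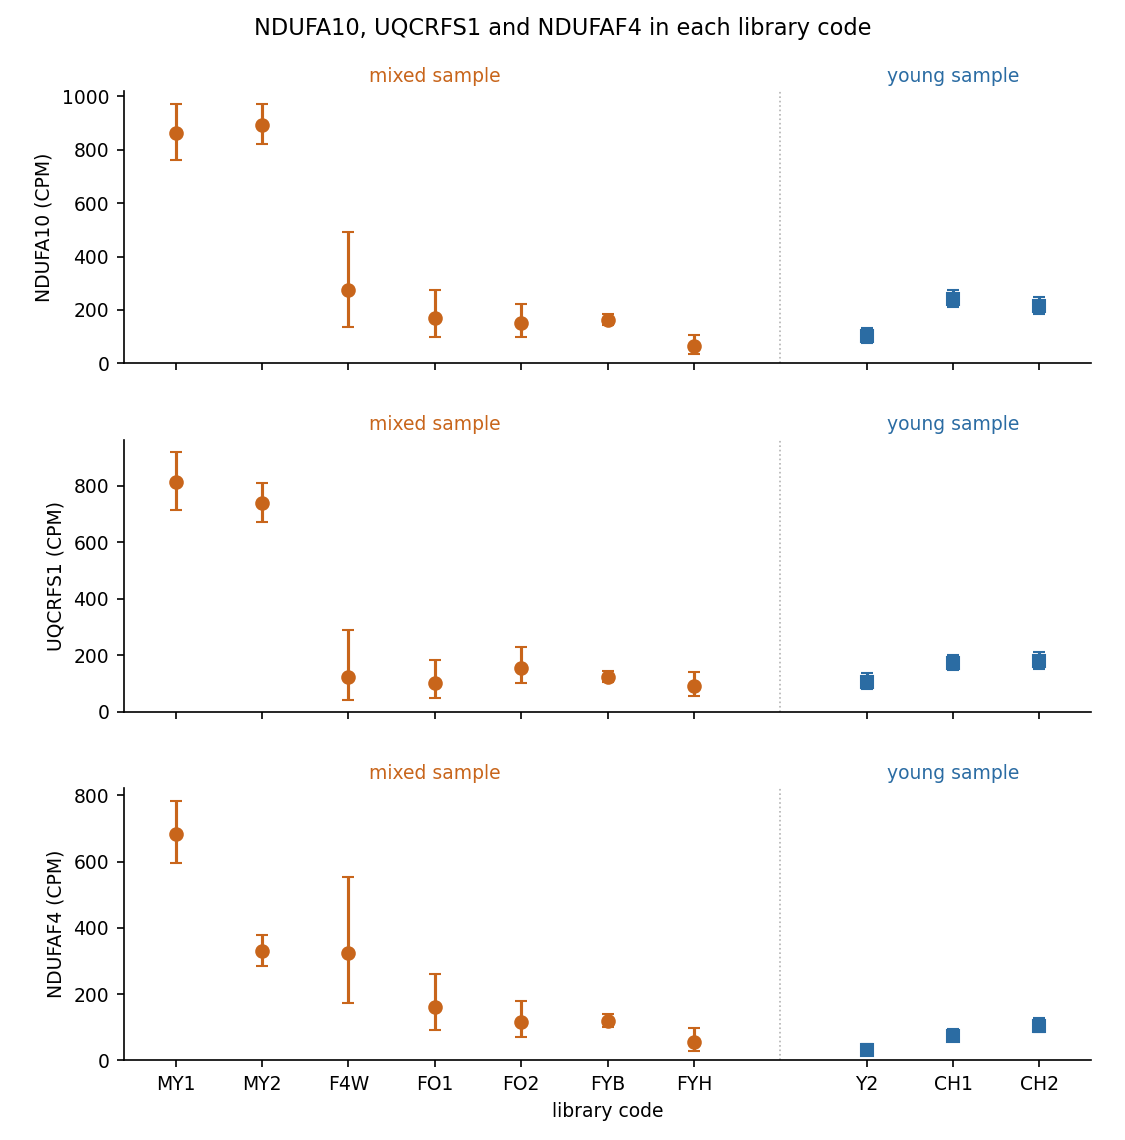
CPM of NDUFA10, UQCRFS1 and NDUFAF4 in each library code of the mixed and the young sample; bars are exact 95% intervals for counting error. NDUFA10 and UQCRFS1 lie between 738 and 894 CPM in MY1 and MY2 and at 274 CPM or less in all other codes.

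The spread over barcodes was compared for all nuclear genes with at least 50 counts in a sample. The 23 mixed barcodes richest in a gene (1% of the kept ones) held a median of 15.7% of its UMIs over 47 genes, 64.3% for UQCRFS1 and 37.5% for NDUFAF4. NDUFAF5 had 51.9%, but with at most 2 UMIs per barcode. In the young sample the 21 richest barcodes held a median of 18.97% over 35 genes, with NDUFA10 highest at 36.6%.

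Barcodes with many germline marker UMIs also held more of the whole nuclear set. At 2000 UMIs or more, barcodes with at least 5 germline UMIs had 10355 CPM and the others 7496 CPM in the mixed sample (171 and 181 barcodes), and 10476 and 6757 CPM in the young sample (77 and 155 barcodes). Depth was not matched, with medians of 2864 against 2433 UMIs in the mixed sample and 3124 against 2340 in the young sample. At 500 UMIs or more, 209 such mixed barcodes were of MY1 or MY2, the codes highest in the nuclear set, and 107 of the other mixed codes. The part of depth and code in these differences was not tested. At 2000 UMIs or more, barcodes with at least 5 muscle marker UMIs had less, 5334 CPM against 9132 CPM in the mixed sample and 5015 CPM against 8921 CPM in the young sample, from 14 and 41 such barcodes. Hemocyte barcodes of that minimum also had less, 8675 against 9649 CPM in the mixed sample and 7771 against 9335 CPM in the young sample. These orders were the same in both samples at 2000 UMIs or more, while those for neuron and photoreceptor markers differed between them. The muscle list differed in makeup. TTN, TNNT3 and TPM1 were higher in the young sample, TTN with 712 of 986 CPM there and 234 of 764 CPM in the mixed sample. MYH6, MYH7 and CNN2 were higher in the mixed sample. The mixed sample had 1593 CPM and the young sample 1101 CPM of the germline list, but its symbols differed in direction. TDRD1 had 737 CPM in the mixed sample and 118 CPM in the young sample, and PIWIL1 had 855 and 983 CPM. The part of cell makeup in the nuclear ratio was not tested.

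FYH was the lowest of the mixed codes in the nuclear set and the highest in photoreceptor markers. It had 12968 CPM of the photoreceptor list and 6171 CPM of nuclear respiratory chain genes, against 485 and 7681 CPM in FYB. It was also the highest mixed code in neuron (3014 CPM), hemocyte (9572 CPM) and digestive markers (244 CPM), and the lowest in germline markers (469 CPM). At 2000 UMIs or more, barcodes with at least 5 photoreceptor UMIs had 8300 CPM of the nuclear set against 9010 CPM in the mixed sample. In the young sample they had 10044 CPM against 8124 CPM, from 8 such barcodes. The part of cell makeup in the FYH level was not tested. Complex V made up 37.9% of nuclear respiratory chain UMIs in FYH, 27.2% in MY1 and 25.2% in MY2, and 34.9% in Y2. Complex I made up 28.9% in FYH, 32.3% in MY1, 35.3% in MY2 and 32.1% in Y2.

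The barcodes of each mixed code are listed under 2 lanes, with each listed barcode under 1 lane. The lists give no barcode sequences, so whether the lanes share cells is not known. The nuclear level differed between the lanes of a code by 1.005-fold (MY1) to 1.11-fold (FO1), with overlapping intervals in 6 of 7 codes. The mitochondrial level differed by 1.10-fold (MY1) to 1.99-fold (F4W), with overlapping intervals in 2 of 7. The mitochondrial level thus differed more between the lanes of a code than the nuclear level.

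Other mitochondrial genes were set beside the chain as lists chosen by symbol. Over all genes tested 13.6% were at least 4-fold higher and 11.1% at least 4-fold lower in the mixed sample, with a median log2 ratio of 0.52, and the counts in these short lists are to be read against those shares. Of 15 citric acid cycle genes with at least 50 counts, 1 was at least 4-fold higher in the mixed sample (IDH3G, 69.8 CPM against 17.3 CPM) and none at least 4-fold lower, with a median log2 ratio of 0.26. IDH2, the most counted, had 339 CPM in the mixed sample and 1180 CPM in the young sample. Of 7 carriers and electron carriers, 1 was 4-fold higher (ETFDH, which feeds electrons from fatty acid oxidation into ubiquinone, 77.4 CPM against 3.89 CPM), with a median of 0.82. SLC25A5, an ADP/ATP carrier, had 935 and 1704 CPM.

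The mitochondrial ribosome, which makes the mitochondrially encoded subunits, had 3073 CPM in the mixed sample and 1470 CPM in the young sample over 76 genes. Of the 50 with at least 50 counts, 16 were at least 4-fold higher, beside 13.6% of all genes, and 2 at least 4-fold lower, beside 11.1%, with a median log2 ratio of 1.18. The most counted, MRPL39, had 361 CPM in the mixed sample and 194 CPM in the young sample, and the lower ones were MRPS7 (4.32 and 38.9 CPM) and MRPL52 (DAPMA1EVG004480, 3.24 and 21.6 CPM). Of the 53 with at least 50 counts over every mixed barcode, 13 had at most 2 over every young barcode, beside 6.62% of all genes. Of the 42 counted in both samples, 8 were at least 4-fold higher, with a median of 0.91 against 0.48 over all genes counted in both.

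Of 4 genes for mitochondrial DNA maintenance and expression, 1 was at least 4-fold lower in the mixed sample, NRF1, a transcription factor of nuclear respiratory genes in mammals, with 8.995 CPM against 259 CPM. LRPPRC, which stabilises mitochondrial mRNA, had 172 and 340 CPM. Of 7 further assembly factors, 1 was 4-fold higher (COA7, 33.5 CPM against 5.19 CPM), with a median of 0.93. SCO1, which delivers copper to the COX2 protein, had 68.0 CPM in the mixed sample and 35.0 CPM in the young sample.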

How the data were processed

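The authors deposited 1 matrix per sample, holding UMI counts as whole numbers for each gene in each barcode, per the file headers, and the values show no normalisation. The genome build, annotation and UMI collapsing are not given in the sources used here. The counts were summed over barcodes of at least 500 UMIs per sample and library code and scaled to CPM; the lanes of a code were pooled. The barcode lists number barcodes without their sequences, so barcodes shared between libraries were not counted. Doublets were not called. Ratios are mixed over young, with a count under 3 set to 3, for genes that reached 50 counts in the 2 sums together. Ratios and intervals were tested on simulated counts. Intervals are exact at 95% (Clopper-Pearson for shares, conditional binomial for ratios).

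Members and lists were chosen with earlier results of these data known. Genes named by rule are all mitochondrial copies with at least 50 counts, the 3 most counted subunits of each complex, the 5 highest and the 5 lowest ratios, and the 5 with the largest range over codes of at least 100000 UMIs; NDUFAF4, the 14 barcodes rich in UQCRFS1 and other genes named were chosen after their values were seen. Cell markers are human symbols matched to the gene list. Alternatives were other UMI and count minimums, scaling by TMM (edgeR 4.0.16) or DESeq2 1.42.0, both used for scaling only, equal weight of codes and leaving out each code. Python 3.11.15, numpy 2.4.6, scipy 1.17.1 and pandas 2.3.3 were used. None of 60 protein accessions in member names matched the RefSeq table, so no coordinates or sequences are given. For 1 nuclear gene, single values are not reported here and it is not drawn; the sums and counts include it.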

Additional observations from a re-analysis of the deposited data

How the results depend on the processing

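No paired analysis was possible because each group has 1 sample. The mitochondrial set ratio compares mainly MT-CO2 in the mixed sample with mainly MT-ND1 in the young sample. Sums over every deposited barcode take in young barcodes under 57 UMIs, whereas the mixed barcodes start at 57 UMIs. The log2 ratio of the mitochondrial set, -1.10, was 0.0032 over every deposited barcode, -1.30 at a minimum of 300 UMIs, -0.50 at 1000 and -0.017 at 2000. It was -1.52 with TMM scaling, -1.54 with DESeq2 size factors and -1.76 with equal weight of codes, and ran from -1.72 (without FYB) to -0.27 (without Y2) when 1 code was left out. The log2 ratio of the nuclear set, 0.51, was 1.51 over every deposited barcode, 0.77 at 300 UMIs, 0.29 at 1000 and 0.13 at 2000. It was 0.088 with TMM scaling, 0.068 with DESeq2 size factors, 0.66 with equal weight, 0.44 for structural subunits only and 0.38 without the 12 genes hardly counted in the young sample, and ran from 0.32 (without Y2) to 0.68 (without CH1). The count of nuclear genes at least 4-fold higher, 9, was 17 over every deposited barcode, 0 without those 12 genes, and 9 to 11 with 1 code left out; the count at least 4-fold lower was 0 in all of these, 0 to 0 with 1 code left out. Of 26 genes and copies named by rule, 19 kept their direction in all 16 settings, and NDUFA5, NDUFA8, UQCRC2, UQCRH, COX6C, ATP5F1A and ATP5MF did not. The 19 include the 6 mitochondrial copies, all past 4-fold. They also include COX6B1, COX7C, ATP5IF1, NDUFS4, NDUFA11 and SDHAF4, with 0 young counts in kept barcodes. For these copies and genes a change of sign was hardly possible. UQCRFS1 is among the 19 too, but removal of its rich barcodes was not among the 16 settings. Leaving out the barcodes of at least 5 UMIs of UQCRFS1 took its log2 ratio to -0.31, that of complex III to -0.15, against 0.21 with them, and that of the nuclear set to 0.475, and leaving out those of at least 10 UMIs took NDUFAF4 to 1.195 and NDUFA10 to 0.96. The minimum of 2000 UMIs, the removal of the 12 genes and the removal of rich barcodes were chosen after seeing the data. Apart from what an alternative changes by construction, the cause of these changes was not tested.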
